A study of Mus musculus with 17 samples.

Results

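The gene ends that LIN54 and p130 occupied in Stag2-KO mouse urothelium were set against each other. The members are the peak lists of 2 LIN54-KO and 3 p130-KO CUT&RUN libraries, 5 of the 17 samples of the series and of the 15 that have a peak list. A gene counted as marked by a library if it listed a summit no farther than 500 bp from one of the gene's ends. A gene was assigned to LIN54 alone when it was marked in both LIN54-KO libraries and in no p130-KO library, to p130 alone in the opposite case, and to both when all 5 libraries marked it. Of the 20661 protein-coding genes on chromosomes 1 to 19, 1408 (6.81%) fell to LIN54 alone, 218 (1.06%) to p130 alone and 1377 (6.66%) to both in the deposited lists, which hold peaks with p up to 0.05. No library marked 3421 genes, and the other 14237 were marked in an incomplete pattern. At q 0.01 or lower, the same rule gave 2963 genes (14.3%), 8 genes (0.0387%) and 137 genes (0.663%).

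CUT&RUN releases and sequences DNA around the antigen that an antibody binds in nuclei. The tissue was urothelium peeled from the bladder, about 500000 cells per condition, taken 1 week after tamoxifen (TMX) induction, when Stag2 had been recombined in the KO animals. All 5 libraries carry the genotype Stag2-KO and are labelled as biological replicates. Which Cre drives the deletion, the sex and age of the animals, and whether cells of several animals were pooled are not given in the sources used here. The LIN54-KO libraries belong to batch 1 and the p130-KO libraries to batch 3, so antibody and batch cannot be told apart. Stag2-WT libraries (3 each of LIN54-WT and p130-WT, and 2 of STAG2-WT) and 2 STAG2-KO libraries served as samples that the rule did not use. The LIN54 and STAG2 libraries are all of batch 1, p130-WT replicate 1 is of batch 2, and p130-WT replicates 2 and 3 are of batch 3.

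LIN54 is the DNA-binding subunit of MuvB, a core complex of LIN9, LIN37, LIN52, LIN54 and RBBP4 that contacts the cell cycle genes homology region (CHR) of promoters. In quiescent cells, MuvB joins the pocket protein p130 (gene Rbl2), E2F4 or E2F5 and a DP partner to form the DREAM complex, in which the E2F and DP pair recognises E2F sites and the whole represses genes of DNA replication and mitosis. In cycling cells, MuvB instead joins B-MYB and FOXM1 at genes of mitosis, and p130 can bind E2F without MuvB. STAG2 belongs to cohesin, a ring complex of DNA loops and of sister chromatid cohesion.

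Promoters are printed for 3 genes of each kind because the results below turn on where these summits lie and on the letters under them. Each runs 5′ to 3′ on the gene's strand, from 250 bases before to 50 after the start site (RefSeq, GRCm38.p6, the assembly of mm10). Capitals mark CHR (TTTGAA), the CHR variant (TTCGAA), E2F sites (TTTCCCGC or TTTGGCGC) and CCAAT boxes (CCAAT), in either orientation. The first 3 had a p130-KO peak in every library and no LIN54-KO peak at the promoter: Pclaf, a PCNA-associated factor (chr9:65890073-65890372, plus strand), Mcm7, a subunit of the replicative helicase (chr5:138171834-138172133, minus strand), and Mcm6, another subunit (chr1:128359656-128359955, minus strand).
Pclaf: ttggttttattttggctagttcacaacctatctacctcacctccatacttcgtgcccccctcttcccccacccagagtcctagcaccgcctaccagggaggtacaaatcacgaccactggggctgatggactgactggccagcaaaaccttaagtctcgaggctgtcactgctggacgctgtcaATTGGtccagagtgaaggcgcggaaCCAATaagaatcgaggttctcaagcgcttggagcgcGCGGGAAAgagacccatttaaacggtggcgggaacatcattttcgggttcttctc
Mcm7: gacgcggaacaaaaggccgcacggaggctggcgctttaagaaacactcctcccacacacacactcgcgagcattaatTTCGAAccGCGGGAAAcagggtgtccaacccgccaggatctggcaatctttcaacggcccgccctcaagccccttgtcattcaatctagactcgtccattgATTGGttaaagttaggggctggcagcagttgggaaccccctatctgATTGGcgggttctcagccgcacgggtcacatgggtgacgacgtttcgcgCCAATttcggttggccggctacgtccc
Mcm6: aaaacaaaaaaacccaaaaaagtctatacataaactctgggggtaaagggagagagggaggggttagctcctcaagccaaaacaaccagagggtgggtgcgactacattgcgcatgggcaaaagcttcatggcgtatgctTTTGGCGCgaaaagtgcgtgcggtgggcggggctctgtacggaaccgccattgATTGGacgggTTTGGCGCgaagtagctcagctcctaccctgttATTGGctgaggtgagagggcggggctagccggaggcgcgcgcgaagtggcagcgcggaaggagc

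The next 3 were marked by both antibodies at q 0.01: Top2a, the topoisomerase of mitotic chromosomes (chr11:99024140-99024439, minus strand), E2f3, a transcription factor of S phase entry (chr13:29986014-29986313, minus strand), and Slbp, the binder of histone mRNA stem-loops (chr5:33652525-33652824, minus strand).
Top2a: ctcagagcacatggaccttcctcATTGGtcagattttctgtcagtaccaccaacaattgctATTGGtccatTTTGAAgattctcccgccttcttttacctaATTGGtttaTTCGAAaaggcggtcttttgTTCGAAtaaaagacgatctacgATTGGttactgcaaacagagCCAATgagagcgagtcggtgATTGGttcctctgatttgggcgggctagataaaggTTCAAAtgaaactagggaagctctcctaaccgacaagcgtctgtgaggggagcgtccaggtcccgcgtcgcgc
E2f3: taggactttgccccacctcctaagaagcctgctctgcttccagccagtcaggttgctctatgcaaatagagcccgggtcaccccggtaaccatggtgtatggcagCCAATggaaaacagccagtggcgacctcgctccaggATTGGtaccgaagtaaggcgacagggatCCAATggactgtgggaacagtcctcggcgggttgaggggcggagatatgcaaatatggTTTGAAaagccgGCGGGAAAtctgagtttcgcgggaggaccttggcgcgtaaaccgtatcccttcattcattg
Slbp: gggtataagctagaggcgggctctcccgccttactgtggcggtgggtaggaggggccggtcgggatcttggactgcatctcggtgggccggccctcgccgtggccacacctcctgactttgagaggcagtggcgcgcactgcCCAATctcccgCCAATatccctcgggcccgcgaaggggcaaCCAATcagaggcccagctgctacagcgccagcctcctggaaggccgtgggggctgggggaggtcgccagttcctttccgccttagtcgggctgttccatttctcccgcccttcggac

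The last 3 were marked by LIN54 alone at q 0.01: Hmmr, a spindle-associated protein (chr11:40733388-40733687, minus strand), Eif2ak3, the endoplasmic reticulum stress kinase PERK (chr6:70844265-70844564, plus strand), and Fos, an immediate early transcription factor (chr12:85473640-85473939, plus strand).
Hmmr: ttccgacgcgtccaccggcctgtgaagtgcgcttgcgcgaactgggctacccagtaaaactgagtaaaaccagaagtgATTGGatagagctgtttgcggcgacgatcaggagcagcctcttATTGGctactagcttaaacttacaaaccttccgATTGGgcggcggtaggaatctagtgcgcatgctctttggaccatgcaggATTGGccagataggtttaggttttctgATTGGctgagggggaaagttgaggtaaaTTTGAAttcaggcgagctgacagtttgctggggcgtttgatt
Eif2ak3: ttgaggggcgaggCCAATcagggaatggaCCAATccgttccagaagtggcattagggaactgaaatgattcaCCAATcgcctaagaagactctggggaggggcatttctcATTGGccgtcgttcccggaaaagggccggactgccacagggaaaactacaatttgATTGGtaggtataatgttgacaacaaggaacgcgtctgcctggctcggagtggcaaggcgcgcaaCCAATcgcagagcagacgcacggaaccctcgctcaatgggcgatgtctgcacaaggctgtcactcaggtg
Fos: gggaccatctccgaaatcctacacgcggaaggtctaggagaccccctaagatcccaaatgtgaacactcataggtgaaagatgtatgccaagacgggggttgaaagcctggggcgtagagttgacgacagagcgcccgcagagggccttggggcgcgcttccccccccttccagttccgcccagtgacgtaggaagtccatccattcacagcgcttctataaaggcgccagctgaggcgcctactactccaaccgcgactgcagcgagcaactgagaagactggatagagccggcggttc

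The lists differed little in length and much in strength. LIN54-KO lists held 298570 and 365344 peaks, and p130-KO lists 360788, 397196 and 389667, a difference of −0.21 in log2 number (18.33 ± 0.206, SD, n = 2, against 18.54 ± 0.0734, n = 3; two-sided exact permutation p = 0.2). At q 0.01, 15787 and 13044 LIN54-KO peaks remained against 559, 316 and 322 p130-KO peaks, a log2 difference of 5.22 (exact permutation p = 0.1). With 2 against 3 libraries there are 10 splits, and 0.1 is the smallest p they allow, so no comparison of these libraries could pass 0.05. Marked genes were 49.3% and 51.6% of all genes in LIN54-KO and 36.2%, 37.7% and 35.2% in p130-KO (14.1 points higher with LIN54, exact permutation p = 0.1). At q 0.01 they were 22.5% and 20.9% against 2.24%, 1.14% and 1.17%. The groups did not overlap in either measure. The background was 1.43 and 1.34 fragments per base in LIN54-KO and 1.46, 1.81 and 1.62 in p130-KO, and the median summit held 5 or 6 fragments in all 5 libraries. A gene without a listed peak was therefore not detectable at that depth, and the lowest listed summit held 3 or 4 fragments.

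Most genes with p130 in every library also had LIN54 in every library. The both set was 70.9% of the 1941 genes marked in all p130-KO libraries (9.39% of all genes) and 18% of the 7637 marked in all LIN54-KO libraries (37.0%). At q 0.01 it was 91.9% of 149 genes (0.721%) and 4.03% of 3400 genes (16.5%). The remaining p130 genes at q 0.01 were the 8 of p130 alone and 4 that also reached q 0.01 in 1 LIN54-KO library, namely Cdk1, Mcm5, Ranbp1 and Trmt2a, named after their values were seen. Of the 2963 genes of LIN54 alone at q 0.01, 427 (14.4%, against 31.9% of all genes) had no p130-KO peak in the deposited lists, 970 had one in 1 library, 979 in 2 and 587 (19.8%, against 9.39% of all genes) in all 3. Leaving out a library widens the sets, since fewer libraries must have a peak or lack one. Without LIN54-KO replicates 1 and 2 in turn, LIN54 alone held 2377 and 2204 genes in the deposited lists, and without p130-KO replicates 1 and 2, 2318 and 2450. The p130 alone set held 354 and 428 genes without each LIN54-KO library and 635, 610 and 559 without each p130-KO library, and the both set 2072 and 2205 without p130-KO replicates 2 and 3. At q 0.01 the p130 alone set held 10 or 11 genes without any 1 library. Gm20594 entered p130 alone with q = 0.00973 in its deciding library, Smg5 missed it with 0.0110, and Ranbp1 missed it because LIN54 reached 0.00728. Tcaf1 entered LIN54 alone with q = 0.00979, and Epha4 missed it with 0.0101.

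The 8 genes of p130 alone at q 0.01 lay at 6 separate loci. Fold values below are the authors' enrichment of each summit over its own library's background, in the order of the replicates, and are set side by side as descriptions. Mcm7 had folds of 17.4, 9.48 and 11.2 in p130-KO, no peak in LIN54-KO replicate 1 and a peak of 1.97 at its other end in replicate 2. Its p130 summits lay at −76, −51 and −67 bp from the start site. Its TTCGAA letters begin at −173 bp, its E2F letters at −165 bp and its CCAAT boxes at −72, −26 and 23 bp. The LIN54 summit lay at 7708 bp. Ap4m1, which encodes an adaptor complex subunit, shares this gene end and cannot be told apart from Mcm7. Pclaf had p130-KO folds of 11, 5.37 and 8.45 and no LIN54-KO peak. Its summits lay at 156, 147 and 21 bp from the start, 2 of them beyond the printed promoter, and its E2F letters begin at −5 bp. Both genes act in DNA replication.

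Rbl1 encodes p107, the closest relative of p130. It had folds of 6.72, 4.98 and 7.04 in p130-KO against a single LIN54-KO peak of 2.13. Ywhae, a 14-3-3 protein gene, had folds of 4.92, 4.49 and 5.77 with p130 and 3.19 and 2.66 with LIN54. The antibodies marked its opposite ends: p130 summits lay 32679, 32610 and 32637 bp from its start, and LIN54 summits at −5 and 140 bp. Timeless, a fork protection gene that shares its locus with the lens channel gene Mip, had p130 folds of 4.92, 4.90 and 4.22 and LIN54 folds of 3.45 and 3.65 that did not reach q 0.01. Gm20594, a predicted gene, had folds of 4.06, 4.20 and 6.6 and no LIN54 peak. At each of these loci the p130-KO folds lay above the LIN54-KO folds, a pattern that the rule favours.

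**Figure D1:**
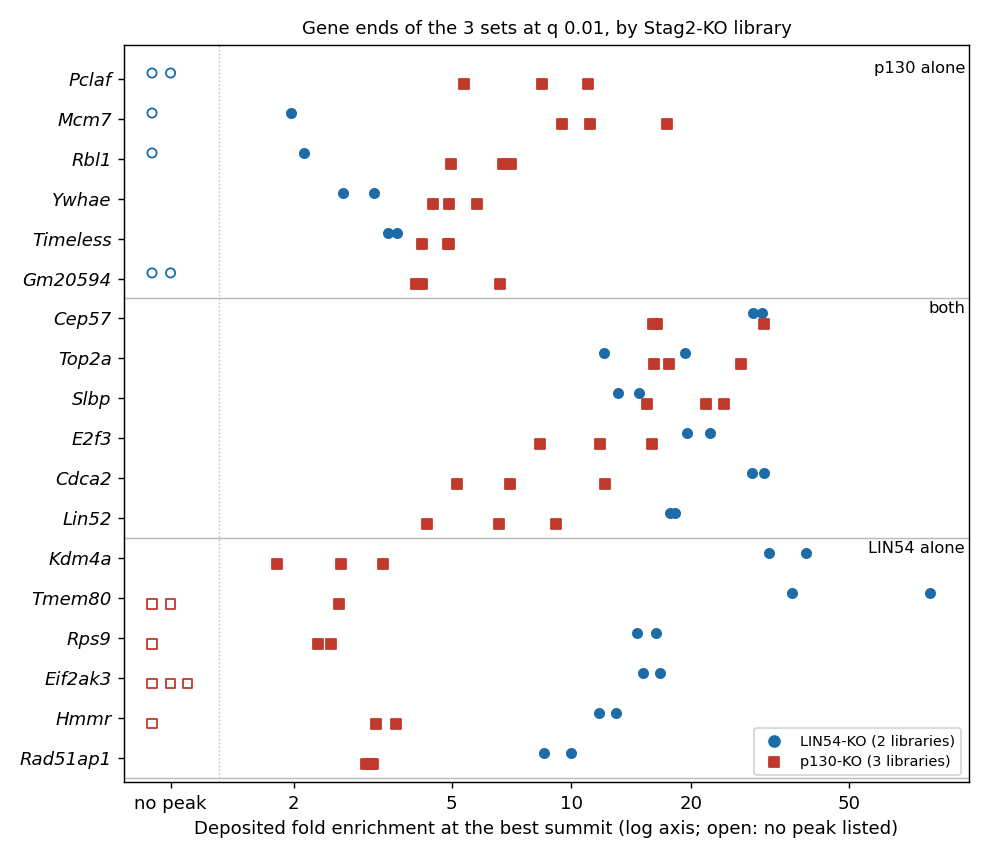
Deposited fold enrichment at the best summit of each gene (horizontal log axis) in 2 LIN54-KO libraries (blue circles) and 3 p130-KO libraries (red squares), with open symbols for no listed peak. Mcm7 reached 17.4 with p130 and 1.97 with LIN54, Top2a was high in all 5 libraries, and Kdm4a reached 39.0 with LIN54 and at most 3.37 with p130.

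In the deposited lists, the p130 alone set of 218 genes was made of weak peaks. Its median folds were 2.37, 2.30 and 2.33, close to 2.43, 2.38 and 2.34 over all genes with a p130-KO peak, and 2.75%, 1.83% and 1.38% of its peaks reached q 0.01. The best summit lay at the 5′ end for 49.7%, 58.9% and 54.9% of its genes with a known strand, against 65.8%, 66.4% and 62.3% over all genes with a p130-KO peak. Besides Pclaf, its members included Mcm6, with folds of 5.97, 3.78 and 4.62 and no LIN54-KO peak. The p130 summits of Mcm6 lay at −64, 38 and 66 bp from the start, and its TTTGGCGC letters begin at −110 and −47 bp. Checkpoint kinase gene Chek1 (2.57, 3.71 and 2.27) and thymidine kinase gene Tk1 (3.08, 1.78 and 2.39) were the other 2 members of the G1/S list, and none came from the G2/M list. Fads2, a fatty acid desaturase gene (3.46, 3.30 and 3.24), and the chromogranin gene Chga (2.59, 3.29 and 3.01) belong to no cell cycle list.

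At q 0.01, the 137 genes of the both set lay at 112 loci, and 54.7% had another gene's end within 1000 bp, against 25.6% of all genes. The other sets also stood above all genes, with 45.5% in LIN54 alone and 4 of 8 genes in p130 alone. Their median folds were 12 and 11.8 with LIN54 and 10.2, 6.37 and 6.53 with p130, against 5.98 and 5.79 in LIN54 alone and 5.82, 4.94 and 6.82 in p130 alone. The LIN54 medians were higher than in LIN54 alone in both libraries, and the p130 medians higher than in p130 alone in 2 of 3. The best summit was at the 5′ end for 98.2% of them in each of the 5 libraries, at a median of −108 and −111 bp from the start for LIN54 and −91.5, −88.5 and −91.5 bp for p130. Top2a had folds of 12.1 and 19.4 with LIN54 and 26.7, 17.6 and 16.2 with p130. Its summits lay at −105 and −60 bp for LIN54 and −66, −101 and −80 bp for p130. Its TTTGAA letters begin at −179 and −23 bp, its TTCGAA letters at −140 and −120 bp and 3 of its CCAAT boxes at −98, −78 and −58 bp. The 2 antibodies overlapped there in fold and position. Slbp had folds of 13.1 and 14.8 with LIN54 and 24.3, 15.5 and 21.8 with p130, with summits between −18 and 32 bp of the start. E2f3 had folds of 19.6 and 22.3 with LIN54 and 15.9, 8.35 and 11.8 with p130, with summits between −130 and −97 bp.

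Other shared genes differed in the order of the antibodies. Cdca2, a phosphatase targeting subunit of mitosis, had folds of 30.6 and 28.4 with LIN54 against 12.2, 7.03 and 5.17 with p130. Its neighbour Kctd9 shares the summits. The adjoining histone genes H3c1 and H4c1 share a summit with folds of 14.6 and 10.9 with LIN54 and 39.8, 22.4 and 24.5 with p130. The groups do not overlap at either locus, and the order is opposite. Cep57, a centrosomal gene with Fam76b at the same end, had folds of 30.2 and 28.7 with LIN54 and 30.6, 16.4 and 16.1 with p130, so the groups overlap. The DNA repair helicase gene Brip1 had 4.53 and 7.96 with LIN54 and 13.7, 9.21 and 9.62 with p130. Esco2, which acetylates cohesin, had 5.74 and 8.66 with LIN54 and 15.5, 11 and 10.4 with p130. Over the 137 genes, the rank correlation of folds was 0.786 between the LIN54-KO libraries, 0.558 to 0.769 between p130-KO libraries and 0.0124 to 0.135 between a LIN54-KO and a p130-KO library. Over the 1377 genes of the deposited both set these values were 0.841, 0.479 to 0.564 and 0.305 to 0.452. They are correlations across genes, which are not independent, and libraries of one antibody also share a batch.

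LIN54 alone held strong promoter peaks of many functions. At q 0.01 its median folds were 5.98 and 5.79, and 97.0% and 96.7% of best summits were at the 5′ end. Kdm4a, a histone demethylase gene, had LIN54 folds of 31.4 and 39.0 against p130 folds of 1.81, 3.37 and 2.64. Tmem80, a membrane protein gene, had 35.9 and 79.8 with LIN54 and 1 p130-KO peak of 2.60. Ppp2r1a, a scaffold subunit of phosphatase PP2A, had 39.0 and 36.5 with LIN54 and 2.61 and 2.01 in p130-KO replicates 1 and 3. The groups were far apart at these 3 genes, a pattern that the rule and the choice of the best-ranked genes favour. With no p130-KO peak at all, the strongest genes included Eif2ak3 (15.1 and 16.8), with both summits at −158 bp and CCAAT boxes that begin at −178 and −140 bp, the vesicle trafficking gene Mon1b (15.8 and 15.8), Zc3h4 (14.1 and 41.6) and the calmodulin gene Calm3 (12.5 and 9.35). The deposited LIN54 alone set as a whole was weaker, with median folds of 3.29 and 3.25, the same level as 3.31 and 3.26 over all genes with a LIN54-KO peak.

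Genes of mitosis were often shared in the deposited lists. Of 75 G2/M targets of DREAM, 36 were marked by both (48.0%, against 6.66% of all genes). LIN54 alone held 2 (Ccnb1 and Cdc25b, 2.67%, against 6.81%) and p130 alone 0 (against 1.06%). At q 0.01, 8 were shared (10.7%, against 0.663% of all genes), namely Cdc25c, Cdca2, Cks1b, Ect2, Kif20a, Kif22, Ncapd2 and Top2a. Another 11 fell to LIN54 alone (14.7%, near the 14.3% of all genes), namely Aurka, Bub3, Ccnb1, Cdc20, Cenpa, Cit, Hmmr, Kif23, Tpx2, Ttk and Ube2c. The count of 11 was 19 and 16 without LIN54-KO replicates 1 and 2, and 17, 12 and 11 without p130-KO replicates 1, 2 and 3. The whole LIN54 alone set then held 3845, 4183, 3125, 2981 and 2986 genes in the same order, beside 2963 with all libraries. Hmmr had LIN54 folds of 11.8 and 12.9 and p130 folds of 3.62 and 3.22 in replicates 1 and 3. The mitotic kinase gene Aurka had LIN54 folds of 10.1 and 8.84 and p130 folds of 2.24 and 2.47 in replicates 1 and 2. Cyclin B1 gene Ccnb1 had 3.83 and 5.52 with LIN54 and no p130-KO peak. By library, q 0.01 peaks marked 39 and 46 G2/M targets with LIN54, where they marked 22.5% and 20.9% of all genes, and 28, 16 and 13 with p130, where they marked 2.24%, 1.14% and 1.17%. Against these rates the list stood higher with p130, at a log2 odds ratio of 4.58 against 2.25 (exact permutation p = 0.1).

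G1/S targets of DREAM were often shared and made up 4 of the 8 genes of p130 alone at q 0.01. Of 79 G1/S targets, 36 were marked by both in the deposited lists (45.6%, against 6.66% of all genes). LIN54 alone held 2 (Gins3 and Rfc5, 2.53%, against 6.81%) and p130 alone 4 (Chek1, Mcm6, Pclaf and Tk1, 5.06%, against 1.06%). At q 0.01, 11 were shared (13.9%, against 0.663% of all genes), namely Brip1, Cdc25a, Dtl, E2f1, E2f3, Gins1, Gins2, Mcm3, Mcm4, Pcna and Slbp, and 4 fell to p130 alone (5.06%, against 0.0387%), namely Mcm7, Pclaf, Rbl1 and Timeless. LIN54 alone held 10 (12.7%, near the 14.3% of all genes), among them Atad2, Cdt1, Chaf1a, Dut, Mcm10, Msh6, Pold3, Pole2 and Rad51ap1. It held 13 and 16 without LIN54-KO replicates 1 and 2, and 11, 13 and 10 without p130-KO replicates 1, 2 and 3. The whole set then held 3845, 4183, 3125, 2981 and 2986 genes in the same order. Mcm5, a helicase subunit gene, had p130 folds of 17.0, 9.21 and 11.6 and LIN54 folds of 2.81 and 3.69. Rad51ap1, a DNA repair gene, showed the opposite order, with LIN54 folds of 8.56 and 10.0 and p130 folds of 3.18, 3.13 and 3.04. By library, q 0.01 peaks marked 36 and 37 G1/S targets with LIN54 and 28, 26 and 22 with p130, at a log2 odds ratio of 1.65 with LIN54 and 5.15 with p130 against the rates of all genes (exact permutation p = 0.1).

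Lists of housekeeping and stress response genes held more genes of LIN54 alone at q 0.01 than the 14.3% of all genes, given as shares with no test. Of 72 cytosolic ribosomal protein genes, 35 (48.6%) were marked by LIN54 alone at q 0.01 and none by p130 alone or by both. In the deposited lists 7 fell to LIN54 alone (9.72%, against 6.81% of all genes) and 12 to both (16.7%, against 6.66%). None fell to p130 alone there (1.06% of all genes). Rps9 had LIN54 folds of 16.4 and 14.7 and p130 folds of 2.30 and 2.48 in replicates 1 and 2. Of 26 immediate early genes, 12 (46.2%) were LIN54 alone at q 0.01, among them Fos, with 18.7 and 14.5 against 1 p130-KO peak of 2.55, and Jun, with 15 and 13 against 3.10 and 3.26 in replicates 1 and 3. LIN54 alone also held 19 of 51 replication-dependent histone genes (37.3%), 11 of 32 proteasome subunit genes (34.4%) and 7 of 21 p53 targets (33.3%). Such lists were also marked at q 0.01 in STAG2-WT (batch 1, as LIN54), which marked 30.6% and 18.2% of all genes. STAG2-KO marked only 2.50% and 10.5% of all genes, and LIN54-KO 22.5% and 20.9%. Ribosomal protein genes numbered 41 and 33 in STAG2-WT and 3 and 19 in STAG2-KO, beside 42 and 47 in LIN54-KO. Immediate early genes numbered 20 and 20, 7 and 11, and 17 and 20 in the same order. The both set held H3c1 and H4c1 of the histone list (3.92%, against 0.663% of all genes) and Psmc4 of the proteasome list (3.1%). Psmc4 had LIN54 folds of 5.98 and 6.04 and p130 folds of 6.76, 3.95 and 4.47. Histone genes lie in clusters of near-identical copies, and how reads that map to several copies were treated is not given in the sources used here. Of 15 cohesin genes, 1 was marked by both at q 0.01 (Esco2, 6.67%, against 0.663% of all genes). LIN54 alone also held 1 (Mau2, 6.67%, below the 14.3% of all genes).

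Genes of urothelial identity were marked by LIN54 alone at q 0.01 in 4 of 23 cases (Cldn4, Ovol1, Upk2 and Upk3b; 17.4%, near the 14.3% of all genes). None of 13 basal, 12 fibroblast, 10 smooth muscle and 10 endothelial markers fell into any of the 3 sets at that threshold. LIN54-KO replicate 1 alone marked 4 fibroblast and 3 smooth muscle markers at q 0.01, beside 22.5% of all genes. LIN54-KO replicate 2 marked 0 of each, beside 20.9% of all genes. Cldn4, a tight junction gene, had LIN54 folds of 4.51 and 5.58, and Upk2, a uroplakin gene, 4.32 and 4.79, with no p130-KO peak at either. Of 14 immune markers, 1 fell to LIN54 alone (7.14%, below all genes): Cd68, with LIN54 folds of 6.84 and 4.08 and p130 folds of 4.11 and 2.55 in replicates 1 and 3, which overlap. These lists check the tissue only in part, since a peak is not expression.

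Of the 14 subunit genes of DREAM and its partners, 3 were marked by both in the deposited lists (21.4%, against 6.66% of all genes). Lin52 had folds of 17.7 and 18.2 with LIN54 and 9.14, 6.59 and 4.34 with p130. Rbbp4, the histone-binding subunit, had 12.4 and 10.8 with LIN54 and 2.63, 4.09 and 5.11 with p130. Mybl2, which encodes B-MYB, had 2.62 and 2.55 with LIN54 and 5.86, 3.87 and 2.91 with p130. Lin52 and Rbbp4 stood higher with LIN54, and Mybl2 with p130. Of the genes of the 2 antigens, Lin54 had 2.66 and 2.42 with LIN54 and 2.96 and 1.80 in p130-KO replicates 1 and 3, and Rbl2 had 4.32 and 3.85 with LIN54 and 2.84 in p130-KO replicate 2, beside medians of 3.31 and 3.26 over all genes with a LIN54-KO peak. At q 0.01, Lin52 was marked by both (1 of 14, 7.14%, against 0.663% of all genes). Rbl2, Lin37 and Tfdp2 were marked by LIN54 alone (3 of 14, 21.4%, against 14.3%), and Rbl1 by p130 alone (1 of 14, 7.14%, against 0.0387%).

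The share of each list among the marked genes of a library was compared as a log2 odds ratio against all other genes. In the deposited lists, ribosomal protein genes stood at 3.47 ± 0.0953 (SD, n = 2) in LIN54-KO and 0.94 ± 0.756 (n = 3) in p130-KO, and histone genes at 2.92 and 0.98 (exact permutation p = 0.1 for each, 0.243 after Benjamini-Hochberg adjustment over 17 lists). G1/S targets stood lower with LIN54, at 1.69 ± 0.408 against 2.49 ± 0.266 (exact permutation p = 0.1, adjusted 0.243), and G2/M targets did not separate, at 2.99 ± 0.855 against 2.57 ± 0.679 (exact permutation p = 0.6), a difference of 0.42 that turned to −0.18 without LIN54-KO replicate 2. Of 17 lists, 7 reached the smallest p that the design allows and 0 passed 0.05 before or after adjustment. At q 0.01 the difference of LIN54-KO minus p130-KO was −3.50 for G1/S and −2.33 for G2/M targets and 1.53 for ribosomal protein genes (exact permutation p = 0.1 for each, adjusted 0.17). In Stag2-WT the G1/S difference was −0.75 in the deposited lists and −2.91 at q 0.01. No difference between genotypes in these list values passed 0.05 after adjustment (lowest adjusted permutation p = 0.408 in the deposited lists and 0.212 at q 0.01, where 1 list passed without adjustment).

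Because p130 lists hold few strong peaks, the 200 genes with the smallest p in each library (0.968% of genes) were also compared, a choice made after seeing the data. The same rule then gave 88 genes of LIN54 alone (0.426%), 78 of p130 alone (0.378%) and 30 of both (0.145%). G1/S targets made up 19, 24 and 18 of the 200 in p130-KO and 3 and 4 in LIN54-KO, a log2 odds ratio difference of −2.87 (exact permutation p = 0.1, adjusted 0.34). Alone here means outside the 200 best genes of the other antibody, not without its peak. This p130 alone set, 0.378% of all genes, held 11 of the 79 G1/S targets (Brip1, Cdc25a, Dtl, Gins1, Mcm4, Mcm5, Mcm7, Pclaf, Pcna, Rbl1 and Slbp). It also held 4 of the 75 G2/M targets (Cdk1, Ect2, Kif20a and Ncapd2). At q 0.01, Brip1, Cdc25a, Dtl, Gins1, Mcm4, Pcna, Slbp, Ect2, Kif20a and Ncapd2 were marked by both antibodies. G2/M targets made up 13, 14 and 10 in p130-KO and 5 and 5 in LIN54-KO, and histone genes 2, 4 and 2 against 0 and 0. Ribosomal protein genes numbered 0 to 2 in each of the 5 libraries. The groups did not overlap for G1/S, G2/M and histone genes.

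**Figure D2:**
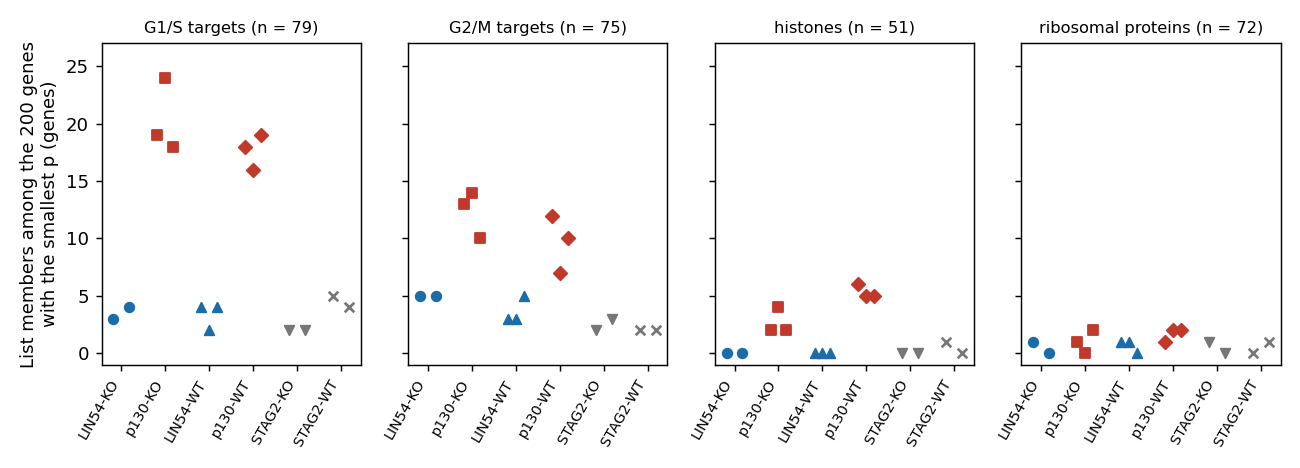
Number of genes of 4 lists (vertical axis) among the 200 genes with the smallest p in each library, 1 point per library by antibody and genotype. For G1/S targets the 6 p130 libraries lie between 16 and 24 and the 9 LIN54 and STAG2 libraries between 2 and 5.

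The Stag2-WT libraries, which the rule did not use, had 18, 16 and 19 G1/S targets among their 200 best genes with p130 and 4, 2 and 4 with LIN54 (difference −2.70, exact permutation p = 0.1, the smallest that 3 against 3 libraries allow). STAG2 libraries of batch 1 had 2 and 2 in KO and 5 and 4 in WT. p130-WT replicate 1, of batch 2, had 18, within the range of the batch 3 libraries.

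The KO sets at q 0.01 were looked up in the Stag2-WT libraries. At q 0.01, LIN54-WT marked 10.8%, 13.6% and 7.09% of all genes, and p130-WT 1.27%, 3.39% and 1.66%. With 263, 700 and 343 marked genes, the p130-WT libraries could not cover the 2963 genes of LIN54 alone. The gap in points for that set was therefore partly fixed by the size of the p130 lists. The p130-WT libraries marked 0.877%, 9.82% and 1.69% of that set. Genes of LIN54 alone in KO were marked at q 0.01 above the rate of all genes by 37.8 ± 11.2 percentage points (SD, n = 3) in LIN54-WT and 2.02 ± 3.83 points (n = 3) in p130-WT. For the 8 genes of p130 alone these were −10.5 ± 3.27 and 68.7 ± 31.2 points, and for the both set 76.1 ± 4.58 and 87.4 ± 5.15 points (exact permutation p = 0.1 for each of the 3 differences, adjusted 0.1). p130-WT marked 3, 6 and 8 of the 8 genes of p130 alone, LIN54-WT 0 in each library, STAG2-KO 0 and 0, and STAG2-WT 6 and 5. Over all genes, STAG2-KO marked 2.50% and 10.5% at q 0.01, and STAG2-WT 30.6% and 18.2%. In any single LIN54-WT or STAG2-KO library, 0 of 8 therefore cannot be told from the rate of all genes. Mcm7 had folds of 13.6, 6.45 and 12.8 in p130-WT, no peak in LIN54-WT, and 7.08 and 3.97 in STAG2-WT, which is of the same batch as LIN54. Pclaf had 6.08, 7.18 and 11 in p130-WT and weak peaks of 3.32, 2.23 and 2.87 in LIN54-WT.

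In the deposited lists the difference between sets was smaller. LIN54 alone genes stood 21.7 ± 3.02 points above all genes in LIN54-WT and 7.25 ± 5.83 in p130-WT (exact permutation p = 0.1, adjusted 0.2). The p130 alone genes stood below all genes in both, at −18.1 ± 4.54 and −7.37 ± 7.39 points, and 9.63% of them were marked in every p130-WT library, against 15% of all genes. Their p130 marks in KO were thus not repeated in WT above the background. Of the both set, 45.0% were again marked by all 6 WT libraries of these antibodies, against 8.51% of all genes. The full LIN54 alone pattern recurred for 3.41% of its genes (1.42% of all genes) and the p130 alone pattern for 1.38% (0.900%). At q 0.01 these shares were 59.9% for both (0.590%), 18.4% for LIN54 alone (2.97%) and 3 of 8 genes for p130 alone (0.0629%).

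The STAG2 antibody in Stag2-KO tissue gives a view of batch 1 with another antibody. Its libraries marked 11.5% and 43.6% of the LIN54 alone genes at q 0.01 (2.50% and 10.5% of all genes) and 32.1% and 65.0% of the both set. In the deposited lists both STAG2-KO libraries marked 39.5% of the LIN54 alone genes and 68.7% of the both set, against 26.9% of all genes. Part of the LIN54 marks was therefore also listed with an antibody whose target gene is labelled as deleted, and the share of batch in the sets was not tested.

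**Figure D3:**
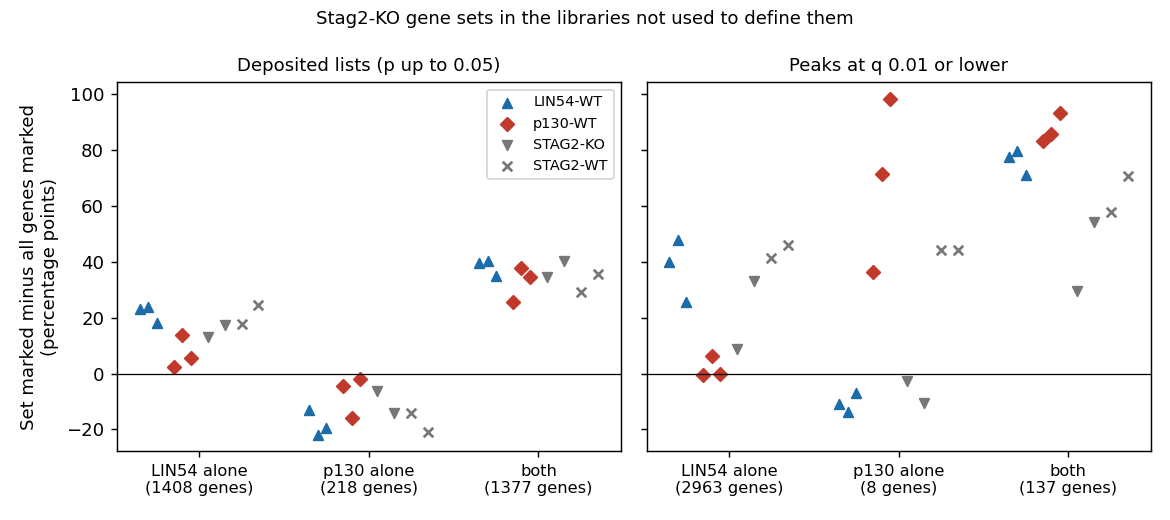
Percent of each KO set marked in the libraries that did not define it, minus the percent of all genes marked in the same library (vertical axis, percentage points), in the deposited lists (left) and at q 0.01 (right), 1 symbol per library. At q 0.01 the 137 genes of both stand high in LIN54-WT and p130-WT, while the 8 genes of p130 alone stand at 68.7 points on average in p130-WT and below 0 in LIN54-WT.

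Promoter letters are given as shares, with no test. RefSeq promoters with a strand were matched for 16456 of the 20661 genes. E2F letters (TTTCCCGC or TTTGGCGC, both strands) stood in 28.6% of the 112 promoters of the both set at q 0.01, in 2.58% of the 2479 of LIN54 alone, in 3 of the 8 of p130 alone and in 2.14% of all promoters. CHR letters (TTTGAA or TTCGAA) stood in 22.3%, 12.5%, 2 of 8 and 17.5%, and CCAAT in 72.3%, 48.9%, 4 of 8 and 39.1%. The GC box (GGGCGG) stood in 83.0% of the both set, 70.3% of LIN54 alone and 47.3% of all promoters. E2F letters had their highest share, among the sets with over 8 promoters, in the both set, and the CHR share of LIN54 alone was below that of all promoters. The shares were not matched for base composition. Median GC was 61.3% in LIN54 alone and 61.8% in the both set at q 0.01, against 56.7% over all promoters, while CHR letters are mostly A and T. In the deposited lists these shares were lower: of the 1153 promoters of the both set, 7.63% held E2F letters and 17.0% CHR letters, the latter below the 17.5% of all promoters.

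Within the target lists, CHR letters stood in 75.0% of 64 G2/M promoters, in each of the 5 shared at q 0.01 and in 80.0% of the 10 marked by LIN54 alone. E2F letters stood in 33.3% of 60 G1/S promoters, in 4 of the 8 shared at q 0.01, in 4 of the 8 of LIN54 alone and in 2 of the 4 of p130 alone. Promoters of the deposited p130 alone set were less rich in CpG, with a median of 7 CpG and 53.7% GC, against 20 and 60% for LIN54 alone, 22 and 61.3% for both and 14 and 56.7% for all promoters.

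**Figure D4:**
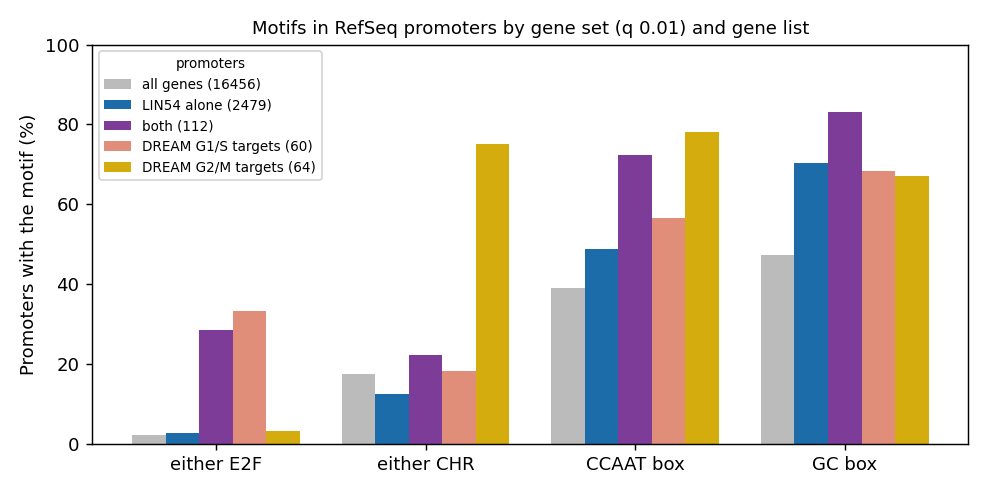
Percent of RefSeq promoters (vertical axis) that hold E2F letters, CHR letters, a CCAAT box or a GC box on either strand, for all genes, the LIN54 alone and both sets at q 0.01 and the 2 DREAM target lists. E2F letters reach 28.6% in the both set and 2.58% in LIN54 alone, and CHR letters 75.0% in G2/M targets.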

How the data were processed

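Each library has its own list of MACS2 peaks, per the labels. The submitters' processing notes name bcl2fastq, Bowtie2, MACS2 and build mm10, with versions, settings and any control library not given in the sources used here. The deposited lists give, per peak, a fold enrichment (ratio to local background), −log10 p and −log10 q, and a score that was not used. These are the authors' values and served only to rank and filter peaks within a library. Fragment counts were recovered from fold and p. The check left out the strongest summits, and at least 99.9924% of the others in the 5 libraries gave whole counts (within 0.0002 on the log10 scale).

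Genes were the 20661 protein-coding genes on chromosomes 1 to 19 of RefSeq GRCm38.p6. A neighbouring gene's end within 500 bp of the summit is marked too. The library was the unit of test, by two-sided exact permutation, with 0.5 added to each cell of an odds ratio. If replicates of a group are not separate animals, the p-values measure technical spread. The named genes are the subunit genes, the 10 best by mean rank in each set and up to 3 per list and set, besides those listed as members of a count. Members, lists and thresholds were chosen with earlier results of these data known. The scripts were tested on simulated data (SciPy 1.17.1, pandas 2.3.3, NumPy 2.4.6, Matplotlib 3.10.9 and Python 3.11.15). The 2 pMNase samples were not used here, and 1 member of a gene list is not reported here.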

Additional observations from a re-analysis of the deposited data

How the results depend on the processing

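Antibody and batch cannot be told apart, peak strength differs between the lists, and no p under 0.1 was possible. Set sizes moved with the threshold and the window. In the order LIN54 alone, p130 alone and both, they were 2963, 8 and 137 genes at q 0.01 and 2574, 17 and 271 with the 20000 best peaks per library. They were 88, 78 and 30 with the 200 best genes, a setting chosen after seeing the data, and 745, 401 and 3323 with a window of 1000 bp. With a window of 250 bp p130 alone held 101 and both 519 genes, and with −log10 q of at least 5 they held 6 and 72. With the 5′ end alone they held 84 and 794. An equal number of best peaks left 145 genes in p130 alone, the same end in every library 105, and leaving out genes with neighbouring ends 751 in both. Leaving out each library gave 2100 to 2450, 354 to 635 and 1513 to 2205 genes. Of the 1408, 218 and 1377 genes, 427, 2 and 137 were in the same set at q 0.01.

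The log2 number of peaks, −0.21 in the deposited lists, turned to 5.22 at q 0.01 and 5.14 at −log10 q of at least 5, and was −0.36 to −0.07 without each library. The excess of the both set in LIN54-WT over p130-WT, 5.81 points, turned to −11.3 at q 0.01 and −10.0 at −log10 q of at least 5. Leaving out each library gave 13 to 15.2 points for the percent of marked genes and 11.97 to 17.6, −14.9 to −7.97 and 2.29 to 8.39 points for the 3 sets in WT.

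Of 212 list differences under the alternatives, 173 kept their direction and 39 reversed, in 10 of the 17 lists. At q 0.01 the reversed log2 differences were −2.33 for G2/M targets, −2.73 for subunits, −2.38 for fibroblast, −2.59 for smooth muscle, −0.10 for histones and −0.92 for HOX genes. At −log10 q of at least 5 they were −2.76, −3.63, −3.43, −3.42, −0.78 and −2.66 for these, −2.23 for luminal and −0.63 for p53 genes. Lists without any marked gene in a library take such values from the added 0.5. With the 20000 best peaks they were −1.46 for G2/M targets, −1.61 for subunits and −0.56 for smooth muscle, and −0.0047 for subunits with an equal number of best peaks. With 250 bp they were −0.70 for G2/M, −0.85 for subunits and −1.07 for smooth muscle, and with 1000 bp 0.31 for basal and −0.38 for smooth muscle genes. With the 200 best genes they were −1.42 for G2/M, −1.06 for subunits, −0.52 for ribosomal proteins and −2.70 for histones. The cause of these reversals was not tested. Leaving out each library gave −0.18 to 1.03 for G2/M, −0.48 to 0.49 for subunits, −0.11 to 0.31 for HOX, −1.02 to 0.68 for basal, −0.16 to 0.26 for fibroblast and −0.34 to 0.89 for smooth muscle genes.

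No pairing by replicate number was seen, with correlations of same-numbered deviations between −0.0118 and 0.0398. With few fragments at most summits, shared animals could go unseen, so pairing was not excluded. With the replicate block, the log2 number of peaks differed by −0.20 and the percent of marked genes by 13.5 points (exact permutation p = 0.5, the smallest that 2 pairs allow), basal genes by 0.11, and the 3 sets in WT by 14.4, −10.7 and 5.81 points (exact permutation p = 0.25).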
